A study of Mus musculus with 2 samples.

Results

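The genes described here are 7 transcription factors of the trophectoderm and 3 early epithelial keratins, 10 of the 21935 gene symbols measured by RNA-Seq in differentiating mouse embryonic stem (ES) cells. The set is defined by gene names, with no threshold on a measured value. The transcription factors are *Cdx2*, *Gata2*, *Gata3*, *Elf5*, *Tfap2c*, *Hand1* and *Tead4*, and the keratins are *Krt8*, *Krt18* and *Krt19*. Of these, 9 were found under the same symbol, and *Tfap2c* was found under its older symbol *Tcfap2c*, which carries the same RefSeq accessions. Polyadenylated RNA came from the mouse ES cell line R1, held for 72 h without LIF (leukaemia inhibitory factor, which keeps ES cells undifferentiated). For culture without LIF the study names gelatin-coated or low-attachment dishes, and its methods do not state which held these cells. shKdm5b ES cells carried a lentiviral short hairpin RNA against *Kdm5b*, which encodes an H3K4 demethylase, and the control shLuc ES cells carried one against luciferase. Both were selected with puromycin and had been grown on irradiated mouse fibroblasts with LIF beforehand. Each condition is analysed here from 1 library, so the differences below have no replicate check, and a difference between libraries cannot be told apart from one between conditions.

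The trophectoderm is the outer epithelium of the blastocyst and gives rise to the placenta. TEAD4 with its coactivators activates *Cdx2* and *Gata3* in the outer cells of the embryo, CDX2, ELF5 and TFAP2C support trophoblast stem cells, and HAND1 acts in trophoblast giant cells. Keratins form filaments only as pairs of a type I and a type II protein, and in the first epithelium of the embryo the type II keratin KRT8 pairs with the type I keratins KRT18 and KRT19.

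The library totals behind the RPKM values (reads per kilobase of transcript, scaled to the library total) were 78172700 reads for shLuc and 72702699 reads for shKdm5b. *Kdm5b*, the targeted gene, had an RPKM of 104 in shLuc ES cells and 3.01 in shKdm5b ES cells, 2.88% of the control. All 14 pluripotency markers found in the files exceeded 1 RPKM in at least 1 library, with 1 higher, 2 lower and 11 within 1.5-fold. This balance was not stable. It was 4 higher and 1 lower after a correction for GC content, beside 2226 higher and 2086 lower over all genes. With length also corrected for, it was 2 higher and 1 lower. *Pou5f1*, which encodes OCT4, a pluripotency factor that represses trophectoderm genes in ES cells, had an RPKM of 619 against 182 (log2 ratio -1.76, or -1.03 after the GC correction described with the keratins), and its part in the differences given here was not tested. Of 15 fibroblast markers, *Thy1* alone exceeded 1 RPKM, and the summed RPKM of the list was 6.78 in shLuc ES cells and 7.68 in shKdm5b ES cells, of which *Thy1* made up 4.08 and 4.59. The share of RNA from feeder cells was not estimated. Differences are given as the log2 ratio of shKdm5b to shLuc after adding 0.1 to each RPKM, so that differences of scarce transcripts appear smaller than they are. The intervals in parentheses are 95% intervals of the same ratio without a pseudocount. They were computed from read counts (Clopper-Pearson) and cover counting error only, treating reads as independent although copies made by PCR are not. A gene was called higher or lower when it differed by more than 1.5-fold and exceeded 1 RPKM in at least 1 library. By this rule 48.3% of the 11804 genes above 1 RPKM differed between the libraries, with 16.3% higher and 32.0% lower in shKdm5b ES cells. That balance depended on scaling, since TMM factors moved it from 1921 higher and 3781 lower genes to 2836 higher and 2715 lower.

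*Krt8* and *Krt18* lie next to each other on chromosome 15 and are transcribed away from each other, with 23873 bases between them. In GRCm38, *Krt8* runs from 101996711 to 102004342 on the minus strand and *Krt18* from 102028216 to 102032026 on the plus strand. The 250 bases upstream of each start site are shown because these 2 neighbours changed in opposite directions, with matches to the searched motifs in capitals. They are RefSeq sequences of build GRCm38.p6, written 5′ to 3′ on the strand of the gene, at chr15:102004343-102004592 for *Krt8* and chr15:102027966-102028215 for *Krt18*.
Krt8: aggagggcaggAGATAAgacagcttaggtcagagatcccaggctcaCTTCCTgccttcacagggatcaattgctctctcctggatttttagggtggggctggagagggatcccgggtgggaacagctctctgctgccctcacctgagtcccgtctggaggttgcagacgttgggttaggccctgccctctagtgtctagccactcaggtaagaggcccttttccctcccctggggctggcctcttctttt
Krt18: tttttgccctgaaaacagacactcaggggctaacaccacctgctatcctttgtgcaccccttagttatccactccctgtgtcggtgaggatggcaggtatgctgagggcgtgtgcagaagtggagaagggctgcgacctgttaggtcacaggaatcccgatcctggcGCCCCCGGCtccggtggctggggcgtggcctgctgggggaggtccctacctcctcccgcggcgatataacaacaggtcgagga

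Motifs were searched as exact letters on both strands, and none of them contains another. The motif of AP-2 factors such as the *Tfap2c* product was GCCNNNGGC. That of GATA factors was AGATAA. For TEAD factors the letters searched were GGAATG. For CDX factors they were TTTATT. The core of sites bound by ETS factors, to which the *Elf5* product belongs, was written AGGAAG. The TATA box, a core promoter element, was taken as TATAAA. The Sp1 site, found in many GC-rich promoters, was taken as GGGCGG. Upstream of *Krt8* there was 1 GATA match, from -239 to -234 relative to the start site, and 1 ETS match on the opposite strand, from -204 to -199. Upstream of *Krt18* there was 1 AP-2 match, from -83 to -75, a position where the pattern, being its own reverse complement, also matches on the opposite strand. Of 32851 promoter windows of the same length, 13.7% held the AP-2 letters, 9.99% the GATA letters and 29.5% the ETS letters. No other searched motif was found in these windows.

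Transcripts of most trophectoderm factors were scarce in both libraries, and *Tfap2c* and *Tead4* were the exceptions. *Cdx2*, *Gata2*, *Gata3*, *Hand1* and *Elf5* stayed below 1 RPKM in both libraries, with a highest value of 0.250 RPKM. In the shKdm5b library, *Tfap2c* was 2.24-fold higher, *Krt18* 1.59-fold higher and *Krt19* 1.74-fold higher, while *Krt8* was 2.63-fold lower and *Tead4* 2.22-fold lower. Of the 10 genes, 5 exceeded 1 RPKM in at least 1 library, and all 5 of those passed the 1.5-fold threshold, with 3 higher and 2 lower. Among all genes above 1 RPKM the share past the threshold was 48.3%, and 5 genes are too few to be set against it. *Tead4* exceeded 1 RPKM in shLuc ES cells only. These 5 calls were the same under 3 other scalings, which took out a log2 shift of -0.17 to -0.24. None of the 5 was called by the edgeR exact test at an assumed dispersion of 0.04 or of 0.16 (FDR below 0.001).

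**Figure D1:**
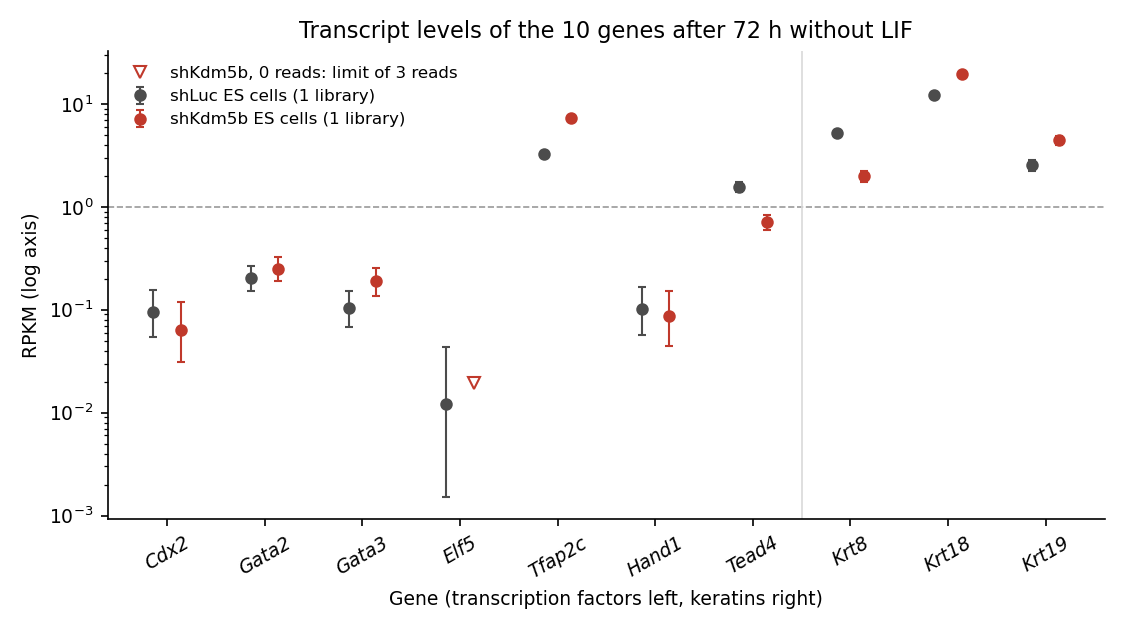
RPKM of the 10 genes on a log axis in shLuc ES cells (grey) and the shKdm5b library (red), 1 library each, with 95% Poisson intervals of the reads as bars and a dashed line at 1 RPKM. The keratins, *Tfap2c* and, in shLuc ES cells, *Tead4* lie above the line, and the open triangle is the limit of 3 reads for *Elf5*, which had 0 reads in shKdm5b ES cells.

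*Tfap2c* encodes the AP-2 gamma factor and lies on chromosome 2 from 172545678 to 172558622 (GRCm38). Its RPKM was 3.24 (717 reads) in shLuc ES cells and 7.23 (1491 reads) in shKdm5b ES cells, a log2 ratio of 1.14 (1.03 to 1.29). The shKdm5b level was the higher, and 4.19% of the genes above 1 RPKM had a larger log2 ratio. *Tfap2c* has another transcript entry in the files, which gave a log2 ratio of 1.15. AP-2 alpha, encoded by *Tfap2a* (named after its values were seen, as are the TEAD paralogs), had 64 and 119 reads and stayed below 1 RPKM. The ratio of *Tfap2c* to *Tfap2a* reads changed 1.12-fold between the libraries, with a counting interval of 0.801 to 1.55 that includes 1.

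*Tead4* lies on chromosome 6 from 128227143 to 128300813. Its RPKM was 1.57 (361 reads) in shLuc ES cells and 0.705 (151 reads) in shKdm5b ES cells, a log2 ratio of -1.05 (-1.44 to -0.87), and the other entry of the gene gave -1.07. The shKdm5b library held 45.0% of the shLuc level. *Tead4* was a small part of the TEAD transcripts, with 2.51% of the summed RPKM of *Tead1* to *Tead4* in shLuc ES cells and 1.23% in shKdm5b ES cells. *Tead2*, the most abundant paralog, had an RPKM of 50.2 and 42.3, and *Tead1* had 9.32 and 13.2. The ratio of *Tead2* to *Tead4* reads was 1.87-fold higher in shKdm5b ES cells (1.54 to 2.29), that of *Tead1* to *Tead4* 3.15-fold (2.59 to 3.84) and that of *Tead3* to *Tead4* 1.82-fold (1.39 to 2.39). These ratios do not depend on the library totals, but that of *Tead1* to *Tead4* moved with GC content, from a difference of 1.55 on the log2 scale to 0.58 after a correction for it. The call of *Tead4* was also lost after this correction, where its log2 ratio was -0.26.

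The low factors were close to the counting limit, where 3 reads correspond to 0.0179 RPKM for *Cdx2* in shLuc ES cells and 0.0192 RPKM in shKdm5b ES cells. *Cdx2*, on chromosome 5 from 147300900 to 147307249, encodes the homeobox factor that defines the trophectoderm and had an RPKM of 0.0954 (16 reads) in shLuc ES cells and 0.0641 (10 reads) in shKdm5b ES cells. *Hand1*, a bHLH factor at 57828713 to 57832147 of chromosome 11, had an RPKM of 0.101 (15 reads) and 0.0870 (12 reads). The levels of both genes overlapped between the libraries within counting error, with log2 ratios of -0.25 (-1.88 to 0.66) for *Cdx2* and -0.11 (-1.44 to 0.98) for *Hand1*, so no difference was detectable at this depth.

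*Gata2*, a zinc finger factor gene at 88193891 to 88207032 of chromosome 6, had an RPKM of 0.205 (52 reads) in shLuc ES cells and 0.250 (59 reads) in shKdm5b ES cells. Its log2 ratio of 0.20 had a counting interval of -0.28 to 0.85, which includes 0, and was 0.79 after the GC correction. *Gata3*, located on chromosome 2 between 9857078 and 9887953, had an RPKM of 0.103 (26 reads) and 0.188 (44 reads), and its log2 ratio of 0.50 had a counting interval of 0.13 to 1.62, which does not include 0. The difference of *Gata3* was therefore larger than counting error alone, at a level below 1 RPKM. *Gata3* reads are also less certain than those of the other factors, because 155 of 3760 annotated exonic bases lie under an exon of *Gm13256* on the opposite strand and the use of strand in counting is not stated. On the same strand, 77 of the 3760 bases lie under an exon of *9230102O04Rik*, which strand could not separate. *Elf5*, an ETS factor gene on chromosome 2 from 103412098 to 103450989, gave 2 reads from shLuc ES cells and none from shKdm5b ES cells, both under the limit of 3 reads, and no ratio is given.

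**Figure D2:**
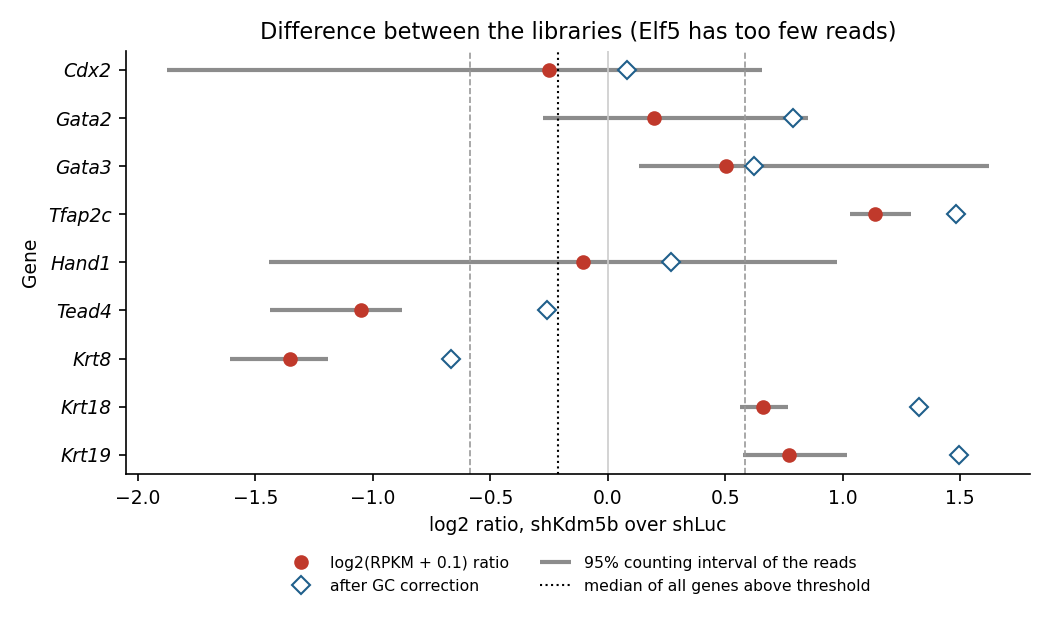
Log2 ratio of shKdm5b to shLuc (red points) with the 95% counting interval of the reads (grey bars) and the value after GC correction (open diamonds) for 9 genes. Dashed lines mark 1.5-fold and the dotted line marks the median of all genes above 1 RPKM, -0.21. *Krt18*, *Krt19* and *Tfap2c* lie to the right and *Krt8* and *Tead4* to the left, and after GC correction *Tead4* lies within 1.5-fold.

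*Krt18* was the most abundant transcript of the set in both libraries, and *Krt18* and *Krt19* changed in the opposite direction to *Krt8*. *Krt18*, a type I keratin, had an RPKM of 12.3 (1350 reads) in shLuc ES cells and 19.6 (1991 reads) in shKdm5b ES cells, a log2 ratio of 0.66 (0.56 to 0.77). *Krt19*, a type I keratin at 100140810 to 100145926 of chromosome 11, had an RPKM of 2.54 (273 reads) and 4.42 (441 reads), a log2 ratio of 0.77 (0.58 to 1.02). *Krt8*, the type II partner, had an RPKM of 5.24 (739 reads) and 1.99 (261 reads), a log2 ratio of -1.35 (-1.61 to -1.19). Both type I keratins were thus higher and *Krt8* lower in shKdm5b ES cells. The intervals of *Krt18* and *Krt19* reach slightly below 1.5-fold, which is 0.58 on the log2 scale.

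The ratio of *Krt18* to *Krt8* RPKM was 2.36 in shLuc ES cells and 9.84 in shKdm5b ES cells. This ratio changed 4.17-fold (3.56 to 4.91), and the ratio of *Krt19* to *Krt8* changed 4.57-fold (3.70 to 5.65). The ratio of *Krt18* to *Krt19* was 4.85 and 4.43, a change of 0.913-fold with an interval of 0.770 to 1.08 that includes 1. In the shLuc library the order of levels was *Krt18*, *Krt8*, *Tfap2c*, *Krt19*, *Tead4*, and in shKdm5b ES cells it was *Krt18*, *Tfap2c*, *Krt19*, *Krt8*, *Tead4*, with no overlap of the Poisson intervals of neighbours in either order. *Krt18* exceeded 78.2% of all gene symbols in RPKM in shLuc ES cells and 85.9% in shKdm5b ES cells, and *Krt8* exceeded 65.0% and 56.4%.

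**Figure D3:**
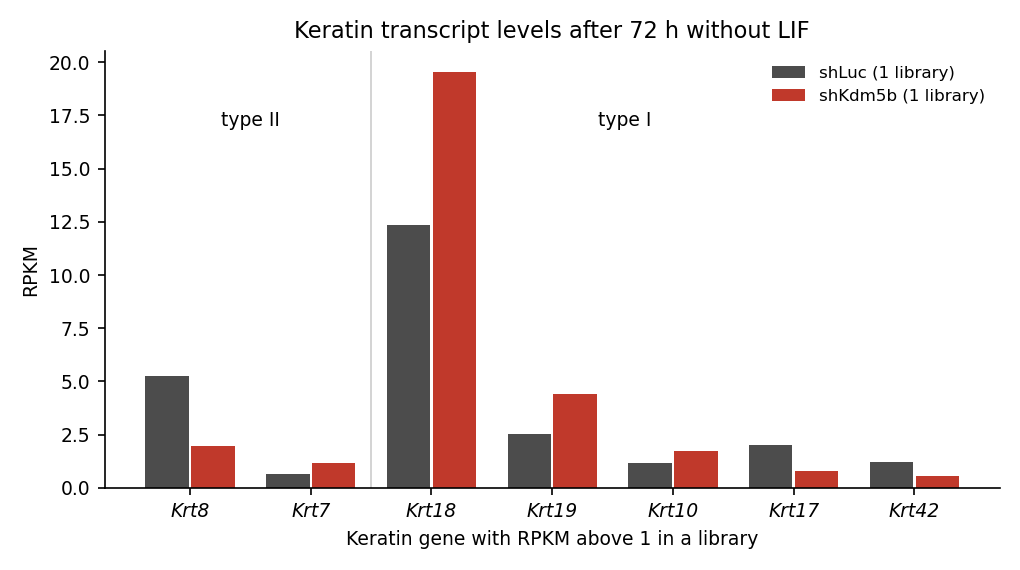
RPKM of the 7 keratin genes above 1 RPKM in at least 1 library, with bars from 0 for the shLuc library (grey) and the shKdm5b library (red), 1 library each, type II keratins left of the line and type I right. *Krt18* is the highest keratin in both libraries, and *Krt8* falls from 5.24 to 1.99 RPKM.

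Of 51 keratin symbols in the files, 7 exceeded 1 RPKM in at least 1 library, and *Krt8*, *Krt18* and *Krt19* held 73.3% of the summed keratin RPKM in shLuc ES cells and 82.3% in shKdm5b ES cells. *Krt7*, the other simple epithelial type II keratin above the threshold, had an RPKM of 0.646 (80 reads) and 1.15 (132 reads), a log2 ratio of 0.74 in the opposite direction to *Krt8*. Among 12 keratins of stratified epithelia, *Krt17* (log2 ratio -1.25) and *Krt42* (log2 ratio -0.96) were lower, and *Krt10* (log2 ratio 0.53) was within 1.5-fold. *Krt17* and *Krt42* exceeded 1 RPKM in shLuc ES cells only. These calls did not hold after the GC correction. *Krt17* (log2 ratio -0.51) and *Krt42* (log2 ratio -0.22) then came within 1.5-fold, and *Krt10* (log2 ratio 0.996) was higher. With length also corrected for, *Krt17* was again lower (log2 ratio -0.69). Over the 20 listed keratins, the summed RPKM of type I genes was 19.7 and 27.5, and that of type II genes was 6.25 and 3.39. Type I transcripts exceeded type II transcripts 3.16-fold in shLuc ES cells and 8.11-fold in shKdm5b ES cells. The fall of the type II sum rests on *Krt8*, since the other 7 type II genes summed to 1.01 and 1.40 RPKM. The higher type I sum in shKdm5b ES cells is the other part of this change.

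The *Krt8* count has a limit that those of *Krt18* and *Krt19* do not share to the same extent. Of the windows of 50 bases, the length of the aligned reads, in the GENCODE *Krt8* transcript, 29.7% occur letter for letter in transcripts of other genes, chiefly the pseudogene *Krt8-ps*, against 0.72% for *Krt18* and 0% for *Krt19*. With windows of 25 bases the shares were 39.7%, 18.3% and 3.41%. The study states for its ChIP-Seq reads that those with several matches were removed, but how such reads were treated in RNA-Seq is not stated. The pseudogene has no entry in the files, and its part in the *Krt8* difference was not tested. An exon of *Gm36026* on the opposite strand also covers 101 of the 1958 exonic bases of *Krt8*. For the other genes of the set, at most 1.86% of the 50-base windows and 5.01% of the 25-base windows were shared, both for *Gata3*.

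The log2 ratio of all genes fell with the GC content of their transcripts, with a Spearman correlation of -0.53 over 11535 genes, which come from the same pair of libraries. The 3 keratins have similar GC contents, from 56.4% to 57.6%, so the contrast among them was found within 1 narrow range of GC. Among the 1081 genes above 1 RPKM with 56% to 58% GC, the median log2 ratio was -0.68, 17.3% of the genes lay below *Krt8*, 4.16% lay above *Krt18* and 3.05% lay above *Krt19*. After the GC correction the log2 ratios were 1.32 for *Krt18*, 1.50 for *Krt19*, -0.67 for *Krt8* and 1.48 for *Tfap2c*. The difference between *Krt18* and *Krt8* was 2.01 on the log2 scale without the correction and 1.99 with it.

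**Figure D4:**
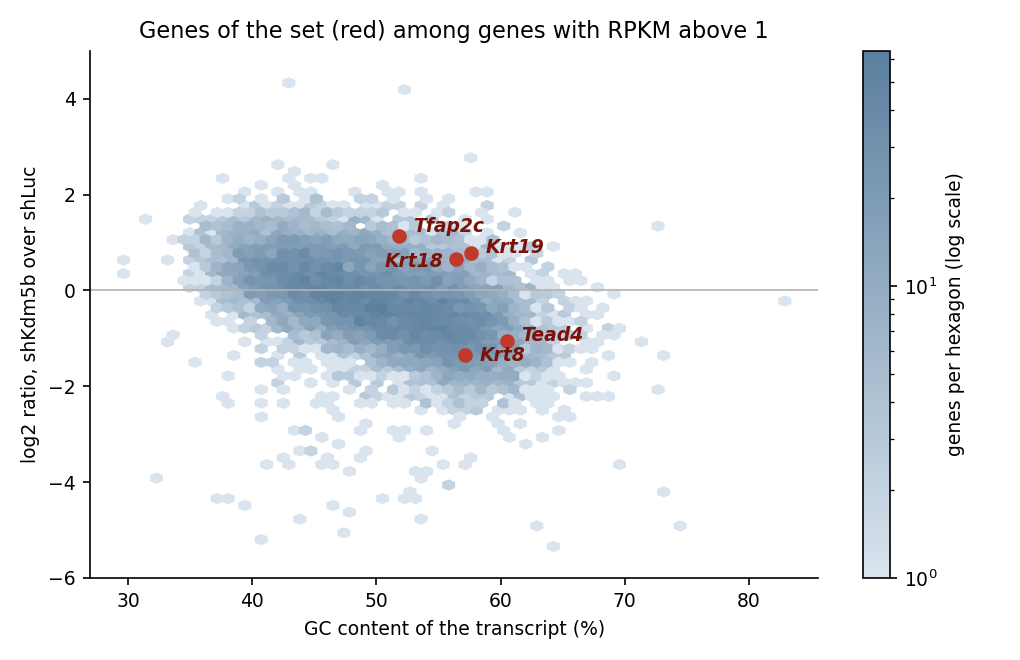
Log2 ratio of shKdm5b to shLuc against transcript GC content for 11535 genes with RPKM above 1 in at least 1 library, as hexagons shaded by the number of genes on a log scale, with the 5 genes of the set that pass this threshold in red. The ratio of all genes falls with GC content, and *Krt8* lies below and *Krt18* and *Krt19* above zero at nearly the same GC content.

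Other trophoblast genes were compared as a list of 34. Of these, 17 exceeded 1 RPKM, with 7 higher, 2 lower and 8 within 1.5-fold, beside 16.3% higher and 32.0% lower over all genes. Their median log2 ratio was 0.51, and that of all genes above 1 RPKM was -0.21. The median includes genes that exceeded 1 RPKM in shKdm5b ES cells only. Over the 26 genes of the list with more than 3 reads in a library it was 0.28, with 15 above 0 and 11 below. The list was chosen with earlier results of these data known. With RPKM above 1 in both libraries, 15 genes of the list remained, with 5 higher and 2 lower. *Dlx3*, a placental homeobox gene, had an RPKM of 0.610 and 2.05 (log2 ratio 1.60) and exceeded 1 RPKM in shKdm5b ES cells only. *Id2*, an inhibitor of bHLH factors that is also expressed in many other cells, had 16.0 and 48.6 (log2 ratio 1.60), *Aqp3*, a water and glycerol channel, had 1.55 and 4.13 (log2 ratio 1.35), and *Fabp3*, a fatty acid binding protein, had 10.3 and 24.2 (log2 ratio 1.23). The 2 lower genes, named after their values were seen, were *Esrrb*, an orphan nuclear receptor gene of ES and trophoblast stem cells, with 80.5 and 41.2 (log2 ratio -0.96), and *Cdh3*, which encodes P-cadherin, with 21.3 and 12.3 (log2 ratio -0.78). The genes higher in shKdm5b numbered 9 to 10 under the other scalings, with 1 to 2 lower, and 11 after the GC correction, with 0 lower. After that correction *Esrrb* (log2 ratio -0.31) and *Cdh3* (log2 ratio -0.41) came within 1.5-fold. Of the 34 genes, 6 had 0 reads in both libraries, among them *Tpbpa*, a spongiotrophoblast marker, and *Prl3d1*, a giant cell hormone gene.

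The Hippo pathway controls the coactivators YAP1 and TAZ, which act through the TEAD factors. Of 23 listed genes, 18 exceeded 1 RPKM, with 6 higher, 4 lower and 8 within 1.5-fold, and the median log2 ratio was 0.12. The share past the threshold, 10 of 18, is near the 48.3% of all genes above 1 RPKM and is no result about the pathway. *Amot*, which encodes angiomotin, an inhibitor that holds YAP1 in the cytoplasm, had an RPKM of 12.5 (6220 reads) in shLuc ES cells and 2.01 (931 reads) in shKdm5b ES cells, a log2 ratio of -2.58. *Nf2*, which encodes Merlin, an activator of the pathway, had 28.2 and 12.5 (log2 ratio -1.17). *Wwtr1*, which encodes TAZ, had 7.21 and 17.9 (log2 ratio 1.30), and *Vgll3*, a TEAD cofactor gene, had 0.150 and 1.03 (log2 ratio 2.18). These 4 genes kept their direction and passed 1.5-fold after the GC correction, with log2 ratios of -2.62, -0.70, 1.05 and 1.78. With length also corrected for, *Nf2* came within 1.5-fold (log2 ratio -0.53) and the others stayed past it.

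Among 13 relatives of the factors, 3 exceeded 1 RPKM. *Gata4* had an RPKM of 2.58 and 0.539 (log2 ratio -2.07), *Gata6* had 1.01 and 0.258 (log2 ratio -1.62), and *Elf3*, an epithelial ETS factor, had 15.9 and 10.7 (log2 ratio -0.56). *Gata4* and *Gata6*, factors of the extraembryonic endoderm, were lower in shKdm5b ES cells, while *Gata2* and *Gata3* had log2 ratios above 0 at levels below 1 RPKM. The call of *Gata6* rests on its level of 1.01 RPKM in shLuc ES cells and was lost under the other scalings, which took it below 1 RPKM. With no RPKM threshold, 2 of the 13 relatives were higher by more than 1.5-fold and 4 lower. Over all 21935 genes, 2414 were then higher and 5224 lower.

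Genes of epithelial junctions and keratin linkage were compared as a list that also holds epithelial regulator genes such as *Grhl2*. Of 32 listed genes, 31 were found and 29 exceeded 1 RPKM. Among these 29, 2 were higher, 8 lower and 19 within 1.5-fold, beside 16.3% higher and 32.0% lower over all genes. Their median log2 ratio was -0.14. The largest differences were those of *Plec*, which encodes the filament linker plectin, with an RPKM of 4.09 and 1.01 (log2 ratio -1.91), *Grhl2*, an epithelial transcription factor gene, with 20.8 and 6.93 (log2 ratio -1.57), *Pkp3*, a desmosomal plakophilin gene, with 2.26 and 0.775 (log2 ratio -1.43), and *Evpl*, which encodes envoplakin, with 1.24 and 0.490 (log2 ratio -1.18). The balance of the list was not stable, with 6 higher and 4 lower under TMM factors and 7 higher and 3 lower after the GC correction. *Grhl2*, *Plec* and *Pkp3* remained lower by more than 1.5-fold after that correction (log2 ratios -1.35, -1.07 and -0.64), and *Evpl* came within it (log2 ratio -0.40). With length also corrected for, *Pkp3* came just within 1.5-fold (log2 ratio -0.58).

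Cells of the primitive and visceral endoderm also make *Krt8*, *Krt18* and *Krt19*, and their markers differed between the libraries. Of 18 endoderm markers, 13 exceeded 1 RPKM, with 10 lower, 1 higher and 2 within 1.5-fold, beside 32.0% lower and 16.3% higher over all genes. The median log2 ratio of these markers was -2.42. Most of the lower ones exceeded 1 RPKM in shLuc ES cells only, and of the 5 markers above 1 RPKM in both libraries 2 were lower and 1 was higher. With no RPKM threshold, 15 of the 18 were lower and 1 was higher. The summed RPKM of the whole list was 237 in shLuc ES cells and 227 in shKdm5b ES cells, of which *Apoe*, a gene expressed in many cells and named after its values were seen, made up 147 and 173. *Afp*, a marker of visceral endoderm, had 65 reads in shLuc ES cells and 0 reads in shKdm5b ES cells. Taking 3 reads as the level in that library makes it 20.2-fold lower, and the counting interval reaches up to a log2 ratio of -3.99. The part of endoderm cells in the keratin and *Gata* differences was not tested, and in a bulk library fewer cells of a type and less RNA per cell cannot be told apart. Mesoderm, where *Hand1* is also expressed, was represented by 14 markers. Of these, 4 exceeded 1 RPKM, with 1 higher, which is also on the trophoblast list, and 1 lower. After the GC correction 3 were higher and 1 lower. The summed RPKM was 12.4 and 14.3, of which the most abundant marker made up 5.05 and 5.85, so the sums say little about the scarce markers. Of 13 markers with more than 3 reads in a library, 6 had log2 ratios above 0 and 7 below, from -2.18 to 1.60.

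**Figure D5:**
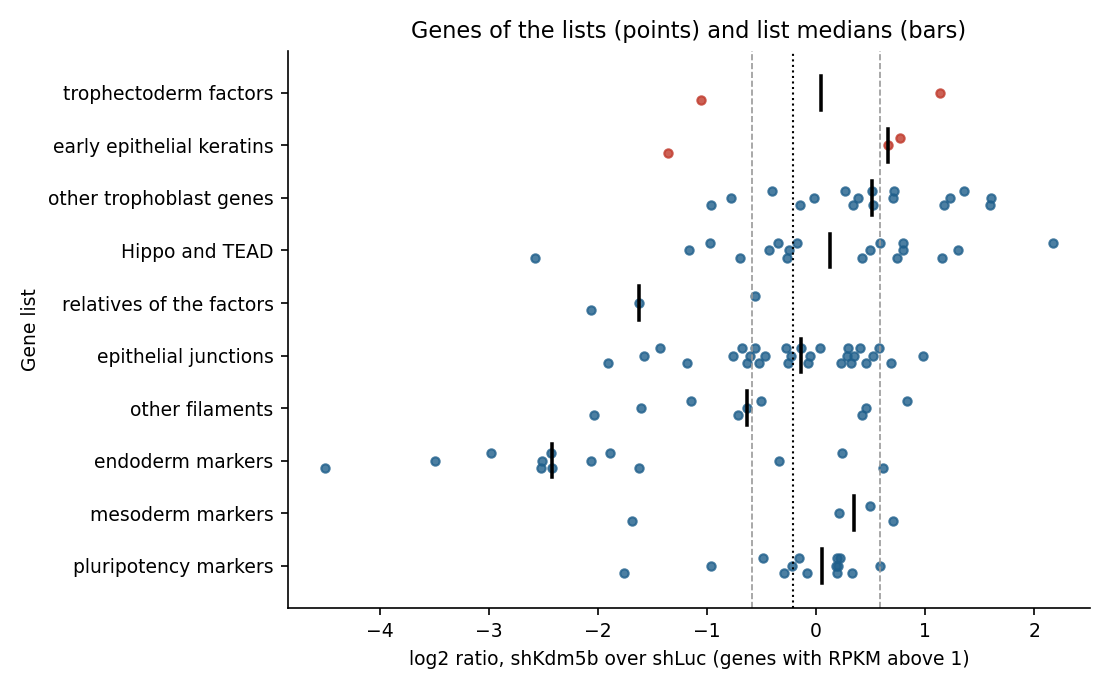
Log2 ratio of shKdm5b to shLuc for the listed genes with RPKM above 1 in at least 1 library, 1 point per gene, with the 10 genes' own lists in red and other lists in blue; black bars are list medians. Dashed lines mark 1.5-fold and the dotted line marks the median of all genes, -0.21. The endoderm markers lie farthest to the left, with a median of -2.42, and the other trophoblast genes have a median of 0.51. Both lists hold genes that exceeded 1 RPKM in 1 library only.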

How the data were processed

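For 1 library per condition, the authors deposited for 27405 RefSeq transcript entries the RPKM, the entry length and the read count. The submitters' processing notes name CASAVA 1.0, Bowtie 0.12.7 and mm8. Reads mapped to several sites were removed by the stated ChIP-Seq settings of the same aligner. For RNA-Seq, their treatment and the counting program are not given in the sources used here. The deposited counts, lengths and RPKM values imply the library totals. Aligned reads were also deposited but not used, since no annotation of their build was at hand.

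Symbols with several entries were represented by the one of highest mean RPKM. With 1 library per condition there was no test. The study's thresholds of fold change and RPKM were applied without an FDR. Alternatives used edgeR 4.0.16 and DESeq2 1.42.0 (R 4.3.3) on the counts, or a lowess curve (fraction 0.3, statsmodels 0.14.6) over transcript GC content and length. GC content, known for 97.1% of symbols, and exon positions came from GENCODE M21, and gene coordinates from RefSeq GRCm38.p6. For *Tead4* the matched GENCODE transcript, at 1909 bases, is shorter than the entry of 2947 bases. Poisson and conditional odds ratio intervals used SciPy 1.17.1. The steps were tested on simulated data. All 10 genes of the set were to be named, with at most 4 per other list, ranked by size of the log2 ratio among genes above 1 RPKM, and marker lists by counts and genes at 0 reads. *Pou5f1*, *Thy1*, *Apoe*, *Esrrb*, *Cdh3*, *Tfap2a* and the TEAD paralogs were named outside this rule, after their values were seen. The genes and lists were chosen with earlier results of these data known.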

Additional observations from a re-analysis of the deposited data

How the results depend on the processing

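No paired analysis was possible because only 1 library of shLuc and 1 of shKdm5b ES cells were analysed, and none could be left out. The number of genes of the set past the thresholds, 5, was 5 under both other pseudocounts, all 3 other scalings and the sum of entries, and 4 when GC, or GC and length, were corrected for and with RPKM above 1 in both libraries, where *Tead4* was lost. Of the 108 other listed genes above 1 RPKM, 52 passed the main thresholds, near the 48.3% of all genes, which is no result about the lists. With a fold change above 2 the number for the set was 3 of 5 (1 higher and 2 lower). Over all genes it was 2688 of 11804, and over the other listed genes 30 of 108. With the edgeR exact test at an assumed dispersion of 0.04 these numbers were 0, 272 and 13, and at 0.16 they were 0, 1 and 0. Both dispersions are assumptions, as these data hold no measure of it. After the GC and length correction 3745 of 11636 genes remained past the thresholds, against 5702 of 11804. Without the RPKM threshold 79 of the 186 other listed genes passed, beside 7638 of 21935 over all genes. The cause of these changes was not tested, apart from the stricter or looser thresholds themselves.

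The scalings took out a log2 shift of -0.17 (median), -0.22 (TMM) or -0.24 (DESeq2). Over the 8 alternatives that change the log2 ratio, it ran from 0.96 to 1.54 for *Tfap2c*, from -1.14 to -0.19 for *Tead4*, from -1.39 to -0.67 for *Krt8*, from 0.62 to 1.32 for *Krt18* and from 0.61 to 1.50 for *Krt19*, with no change of sign. *Cdx2* and *Hand1*, with 10 to 16 reads per library, ran from -0.51 to 0.08 and from -0.20 to 0.27, *Gata2* from 0.05 to 0.88 and *Gata3* from 0.11 to 0.81. For *Elf5* the depth allows no ratio.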

Other observations

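Intermediate filaments other than keratins were measured with 11 listed genes. Of these, 9 exceeded 1 RPKM, with 1 higher, 5 lower and 3 within 1.5-fold, beside 16.3% higher and 32.0% lower over all genes. The median log2 ratio was -0.63, beside -0.21 for all genes above 1 RPKM. *Lmna*, which encodes the A-type lamins of differentiated nuclei, had an RPKM of 4.57 (544 reads) in shLuc ES cells and 1.04 (115 reads) in shKdm5b ES cells, a log2 ratio of -2.04. *Lmnb2*, a B-type lamin gene, had 29.7 and 9.71 (log2 ratio -1.60), and *Des*, which encodes the muscle filament desmin, had 2.76 and 1.19 (log2 ratio -1.15). *Nes*, the nestin gene of neural progenitors, had 1.78 and 3.24 (log2 ratio 0.83). After the GC correction *Des* came within 1.5-fold (log2 ratio -0.52), while *Lmna* (log2 ratio -1.21), *Lmnb2* (log2 ratio -0.84) and *Nes* (log2 ratio 1.43) stayed past it. Under TMM factors the list had 3 higher and 3 lower genes.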
